A study of Mus musculus with 5 samples.

Results

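The transcripts described here are those of p53 and of 9 genes that p53 is known to switch on, in mouse liver injured with carbon tetrachloride (CCl4) and given the histone deacetylase inhibitor givinostat or not. The 10 genes, Trp53, Cdkn1a, Mdm2, Ccng1, Bax, Phlda3, Sesn1, Btg2, Plk2 and Zmat3, were taken by symbol, 10 of 24808 gene rows, and all 10 were among the 13590 genes that passed the count filter. p53 is a transcription factor that is made constantly and destroyed constantly, because Mdm2, one of its own targets, marks it for degradation. Damage to DNA and other stresses interrupt that destruction, so p53 activity is set mainly at the protein level and is read from its target transcripts. Its targets halt the cell cycle (above all Cdkn1a, which encodes the kinase inhibitor p21), promote cell death or limit stress. Cdkn1a is also a classic gene induced by histone deacetylase inhibitors, in many cultured cell types without the help of p53.

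The libraries came from whole liver of C57BL/6 mice aged 16 weeks. In one group, 3 libraries came from mice that received CCl4, a toxin that hepatocytes convert to a reactive radical. In the other, 2 libraries came from mice that received CCl4 together with givinostat. CCl4 was thus common to all 5 libraries, liver without CCl4 was not analysed here, and the sources used here give neither dose nor timing. Each library held 18608002 to 21739034 counts, of which the members together took 8901 to 13213. Hepatocyte markers were abundant in every library, with albumin alone taking 7.02 to 8.15% of the counts.

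A library that stands apart has to be named before the comparison. CCl4 replicate 1 gave the highest value of the 5 libraries for 28.2% of the tested genes, against 12.3 to 22.0% for each of the others, and for 5 of the 10 members. Its summed Kupffer cell markers (464.8 CPM, counts scaled to a common library size) and leukocyte markers (120.6 CPM) were the lowest of the 5 libraries, where the others had 552.7 to 972.5 CPM and 180.5 to 229.4 CPM. The part of cell makeup in the members' levels was not tested. In whole tissue, fewer cells of a type and less RNA per cell cannot be told apart. Results are therefore given with and without this library.

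The sequences just before the start sites were searched for known control elements. RefSeq promoter sequences on GRCm38.p6 matched 9 of the members, with 11 start sites between them. They are shown for Cdkn1a, which has 2 starts, 2790 bases apart, because the comparison centres on it. Ccng1 is shown because it shares the p53 element, and Bax and Plk2 because their groups did not overlap. Each is the 250 bases before the start, 5′ to 3′ on the gene's strand. Capitals mark a p53 element or a GC box, the site bound by Sp1 family factors through which histone deacetylase inhibitors are known to act on Cdkn1a in human cells. Cdkn1a upstream start is chr17:29090729-29090978 (plus strand), Cdkn1a downstream start chr17:29093519-29093768 (plus strand), Ccng1 chr11:40755287-40755536 (minus strand), Bax chr7:45466899-45467148 (minus strand) and Plk2 chr13:110394794-110395043 (plus strand).
Cdkn1a upstream start: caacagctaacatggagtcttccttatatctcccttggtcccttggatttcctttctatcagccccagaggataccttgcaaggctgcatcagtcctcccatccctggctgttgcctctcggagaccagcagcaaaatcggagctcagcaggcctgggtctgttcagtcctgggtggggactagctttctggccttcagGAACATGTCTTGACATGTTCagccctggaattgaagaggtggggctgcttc
Cdkn1a downstream start: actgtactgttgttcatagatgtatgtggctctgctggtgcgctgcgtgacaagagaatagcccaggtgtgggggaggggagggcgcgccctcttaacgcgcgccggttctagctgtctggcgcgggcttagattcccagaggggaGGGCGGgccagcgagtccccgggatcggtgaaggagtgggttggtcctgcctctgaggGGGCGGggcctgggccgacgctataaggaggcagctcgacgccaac
Ccng1: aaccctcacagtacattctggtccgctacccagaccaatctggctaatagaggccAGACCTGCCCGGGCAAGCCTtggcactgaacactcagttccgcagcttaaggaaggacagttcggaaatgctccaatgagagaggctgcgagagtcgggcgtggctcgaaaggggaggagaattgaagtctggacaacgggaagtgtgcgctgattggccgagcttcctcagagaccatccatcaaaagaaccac
Bax: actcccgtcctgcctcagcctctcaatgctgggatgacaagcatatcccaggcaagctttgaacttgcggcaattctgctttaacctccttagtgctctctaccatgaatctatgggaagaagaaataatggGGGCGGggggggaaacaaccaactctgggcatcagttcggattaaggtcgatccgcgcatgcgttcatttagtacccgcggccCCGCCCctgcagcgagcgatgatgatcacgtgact
Plk2: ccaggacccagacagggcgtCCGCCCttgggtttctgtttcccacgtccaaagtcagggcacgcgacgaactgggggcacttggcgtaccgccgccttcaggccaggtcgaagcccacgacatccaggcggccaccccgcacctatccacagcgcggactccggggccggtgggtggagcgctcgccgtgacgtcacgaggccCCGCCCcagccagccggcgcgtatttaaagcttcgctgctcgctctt

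The p53 element was searched as a back-to-back pair of the p53 half-site over 20 bases, with at most 1 mismatch, and the GC box as GGGCGG on both strands. The p53 element stood before the upstream start of Cdkn1a, reading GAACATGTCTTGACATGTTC, with 1 mismatch, 51 bases from its first base to the start. Ccng1 held the other one, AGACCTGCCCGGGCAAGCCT, also with 1 mismatch, 195 bases from the start. These were 2 of the 11 member windows, whereas 0.0761% of all 32851 promoter windows of that length hold such an element. Mdm2 had none here. Its known p53-dependent promoter lies in its first intron, outside these windows. Elements outside the windows, or with bases between the half-sites, were not searched for any member. A half-site without mismatch was in 6 of the 11 windows, against 7.13% of all windows. The members were chosen as known p53 targets, so these p53 element and half-site shares are not independent of that choice. GC boxes were in 8 of the 11 windows, against 32.7% of all windows. The downstream start of Cdkn1a held 2, and so did Bax and Plk2. The upstream start of Cdkn1a held none. A match is a description of the letters, not evidence of binding, and counts per gene do not tell the starts apart.

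The comparison of CCl4+givinostat with CCl4 asks whether these transcripts differed in injured liver under the inhibitor. Cdkn1a stood at nearly the same mean level in both groups, and no member passed the test over all genes. Bax and Plk2 were the members set apart best, with every givinostat value below every CCl4 value. The rest overlapped between groups. For Cdkn1a, Zmat3, Mdm2, Btg2 and Sesn1, leaving out CCl4 replicate 1 moved the fold change more than leaving out CCl4 replicate 2 or 3. The quasi-likelihood test of edgeR, adjusted over all genes by Benjamini and Hochberg's method at 0.05, called 0 of the 10 members and 0.00736% of all genes. DESeq2 called 0 members and 1.09% of all genes. At an unadjusted edgeR p under 0.05 there were 2 members, both lower, against 7.45% of all genes. The members' median log2 fold change was -0.20, with 8 of 10 lower, beside -0.02 over all tested genes. Without CCl4 replicate 1 that median was -0.03 with 6 of 10 lower, beside 0.00 over all genes, and again 0 members were called (1.75% of all genes). In that fit Btg2 lay higher and Bax and Plk2 lower at an unadjusted edgeR p under 0.05, where 7.8% of all genes were higher and 8.09% lower.

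**Figure D1:**
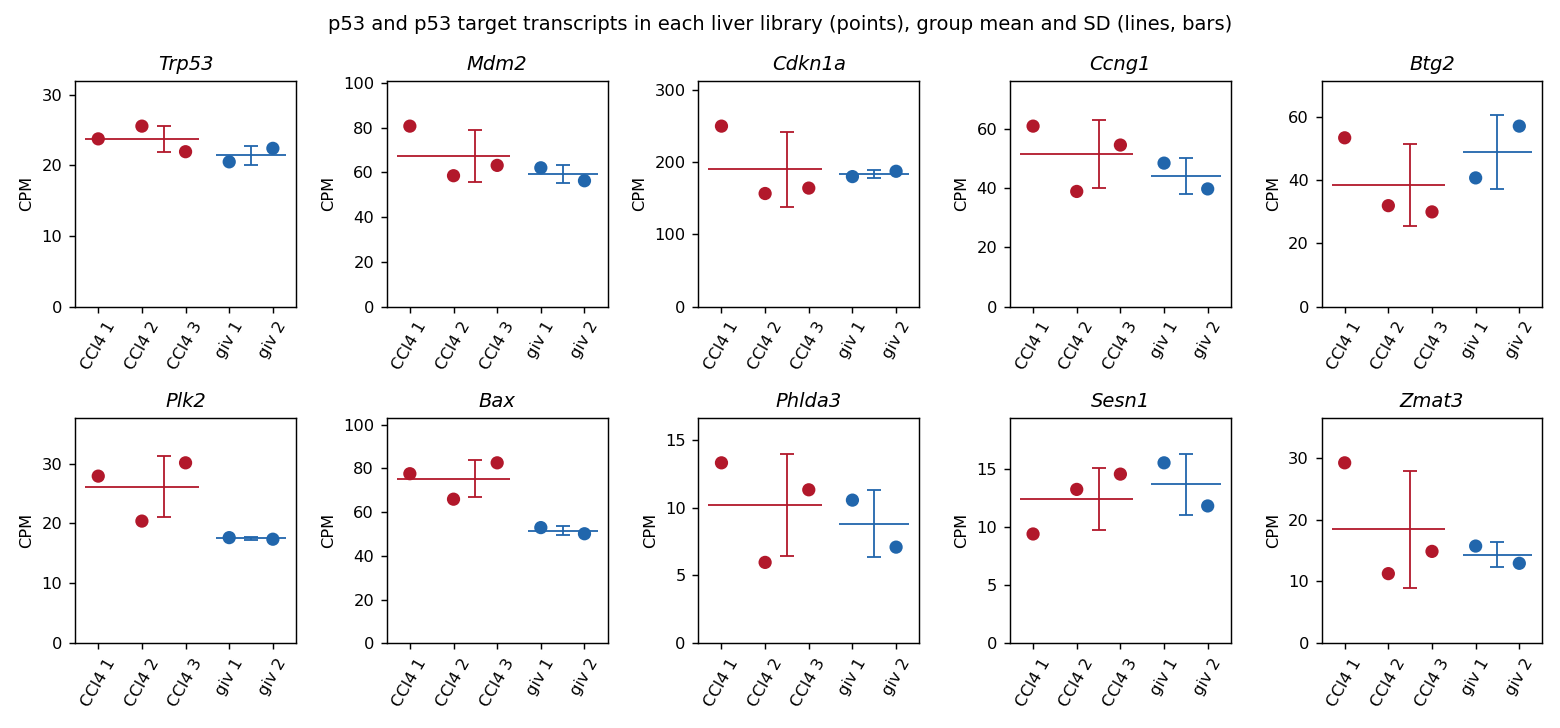
CPM (library-size-scaled counts, with trimmed mean of M values factors) of each member in the 3 CCl4 libraries (red) and the 2 CCl4+givinostat libraries (blue, "giv"); lines are group means and bars are SD. The blue points lie below all red points only for Bax and Plk2, and CCl4 replicate 1 is the highest point for Cdkn1a, Mdm2, Ccng1, Phlda3 and Zmat3.

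Trp53 encodes p53 itself (chromosome 11, 69580359 to 69591873, plus strand, GRCm38). Its levels were 23.7, 25.5 and 21.9 CPM in CCl4 replicates 1 to 3, against 20.5 and 22.4 CPM in givinostat replicates 1 and 2. The groups overlapped, and Trp53 had the narrowest spread among the CCl4 libraries of all members, with a highest value 1.17 times the lowest. Its log2 fold change was -0.15 ± 0.16 (SE; edgeR adjusted p = 0.929), with a 95% interval of -0.51 to 0.22. Mouse carries a processed Trp53 pseudogene, so some reads could have been lost or shared.

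Mdm2 encodes the ubiquitin ligase that removes p53 (chromosome 10, 117688875 to 117710758, minus strand). It was at 80.8, 58.6 and 63.2 CPM in the CCl4 livers, against 62.1 and 56.3 CPM under givinostat. The givinostat values lay within or just under the range of CCl4 replicates 2 and 3, below CCl4 replicate 1. On the log2 scale the groups differed by -0.19 ± 0.18 (SE; edgeR adjusted p = 0.903), and -0.04 ± 0.13 without CCl4 replicate 1.

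Cdkn1a encodes p21, which binds and blocks cyclin-dependent kinases (chromosome 17, 29090976 to 29100727, plus strand). Levels were 249.95, 156.6 and 164.1 CPM in CCl4 replicates 1 to 3, against 180.02 and 187.4 CPM in givinostat replicates 1 and 2. Both givinostat values lay between the CCl4 libraries, above replicates 2 and 3 and below replicate 1. The CCl4 mean was 190.2 ± 51.9 CPM (SD, n = 3), and the givinostat mean 183.7 ± 5.20 CPM (SD, n = 2). The log2 fold change was -0.05 ± 0.22 (SE; edgeR adjusted p = 0.990), which is 0.966-fold with a 95% interval of 0.685 to 1.36-fold. By an exact two-sided permutation test over the 10 assignments of libraries, p was 1, where 0.1 is the smallest that design can give. Without CCl4 replicate 1 the direction turned, to 0.20 ± 0.13 on the log2 scale (edgeR adjusted p = 0.510), or 1.15-fold with an upper bound of 1.41-fold. Both upper bounds lie under a 1.5-fold rise, which holds for these 2 fits only. With a replicate block, which leaves 1 residual degree of freedom, the log2 fold change was -0.11 ± 0.28 (SE). A gene model on the opposite strand, AC167363.2, covers 7.68% of the exonic bases of Cdkn1a, and whether counting used strand is not given in the sources used here.

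**Figure D2:**
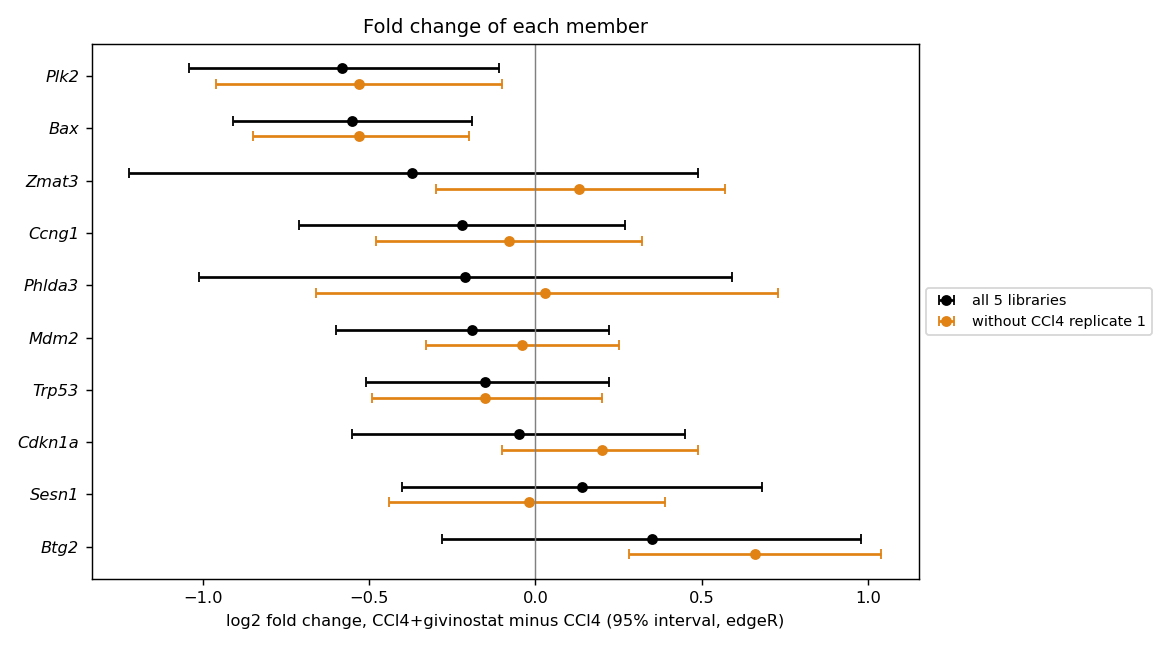
Log2 fold change of each member, CCl4+givinostat minus CCl4, from edgeR with its 95% interval, fitted to all 5 libraries (black) and without CCl4 replicate 1 (orange). Intervals of Bax and Plk2 lie below 0 in both fits, that of Cdkn1a spans 0 in both, and that of Btg2 lies above 0 only in the fit without CCl4 replicate 1; the intervals are not adjusted for the number of genes.

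The genes whose profile over the 5 libraries was most like that of Cdkn1a, by root mean square difference of log2 CPM after centring each gene, were Mtmr3, Slain2, Jade3, Stam2 and Spin1. Each differed from it by 0.03, among 9719 genes averaging at least 5 CPM. Mtmr3, for instance, was at 42.6, 27.6 and 27.8 CPM in the CCl4 livers, against 30.2 and 32.8 CPM under givinostat. The nearest member was Mdm2, at rank 989 with a difference of 0.13. Sesn1 was the farthest, at rank 8481.

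Ccng1 encodes cyclin G1, an Mdm2 partner (chromosome 11, 40748552 to 40755311, minus strand). It was at 60.9, 38.9 and 54.6 CPM in the CCl4 livers, against 48.4 and 39.7 CPM under givinostat. Both givinostat values lay inside the CCl4 range. The fitted log2 fold change was -0.22 ± 0.21 (SE; edgeR adjusted p = 0.909).

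Btg2 encodes an antiproliferative protein that also joins the mRNA deadenylation machinery (chromosome 1, 134075170 to 134079120, minus strand). It was at 53.4, 31.9 and 29.9 CPM in the CCl4 livers, against 40.7 and 57.1 CPM under givinostat. CCl4 replicate 1 stood with the givinostat libraries, and the groups overlapped through it. The log2 fold change was 0.35 ± 0.27 (SE; edgeR adjusted p = 0.871) and, without CCl4 replicate 1, 0.66 ± 0.17 (edgeR adjusted p = 0.0948). Without givinostat replicate 2 it was 0.08 ± 0.36.

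Plk2 encodes a polo-like kinase of the centriole cycle and of stress responses (chromosome 13, 110395046 to 110400844, plus strand). It was at 27.9, 20.4 and 30.1 CPM in the CCl4 livers, against 17.6 and 17.4 CPM under givinostat, so the groups did not overlap. Means were 26.1 ± 5.10 CPM (SD, n = 3) and 17.5 ± 0.187 CPM (SD, n = 2). The log2 fold change was -0.58 ± 0.20 (SE; edgeR adjusted p = 0.529, DESeq2 adjusted p = 0.399), or 0.670-fold with a 95% interval of 0.485 to 0.925-fold.

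Bax encodes the pore-forming protein of the outer mitochondrial membrane that commits a cell to apoptosis (chromosome 7, 45461697 to 45466898, minus strand). It was at 77.6, 65.9 and 82.6 CPM in the CCl4 livers, against 52.9 and 50.1 CPM under givinostat, again without overlap. Means were 75.4 ± 8.54 CPM (SD, n = 3) and 51.5 ± 1.99 CPM (SD, n = 2). The log2 fold change was -0.55 ± 0.16 (SE; edgeR adjusted p = 0.426, DESeq2 adjusted p = 0.172), or 0.684-fold with a 95% interval of 0.532 to 0.878-fold. Another gene model on the same strand, Gm45808, shares 12.2% of the exonic bases of Bax.

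Bax and Plk2 made up all of the members without overlap, 2 of 10, both lower, where 11.7% of all tested genes were lower without overlap and 23.4% did not overlap in either direction. Their log2 fold changes ranged from -0.64 to -0.47 for Bax and from -0.73 to -0.45 for Plk2 with each library left out in turn. Without givinostat replicate 2, neither was at an unadjusted edgeR p under 0.05. Without CCl4 replicate 3 or givinostat replicate 1, only Bax was. Marker levels of several cell types differed alongside them. All 8 mesothelial markers were lower, with summed levels of 8.61 to 21.7 CPM in the CCl4 libraries and 2.33 to 3.10 CPM with givinostat, where Msln had 0 counts in givinostat replicate 1. Of 7 cholangiocyte markers tested, 6 were lower, with summed levels of 152.3 to 225.2 and 107.8 to 140.8 CPM. Spp1 made up most of each sum, at 108.0, 131.3 and 178.5 CPM in the CCl4 livers, against 105.5 and 69.8 CPM under givinostat. Without overlap 4 were lower, as were 11.7% of all tested genes. Epcam and Krt19, the latter also on the mesothelial list, overlapped, and Sox9 was the higher one at 0.06 ± 0.21 (log2, SE). All 8 Kupffer markers and 7 of 8 sinusoidal endothelial markers were lower, as were 5 of 8 stellate markers and 3 of 7 leukocyte markers, all with overlapping sums. The sinusoidal sums were 204.1, 337.3 and 303.75 CPM in CCl4 replicates 1 to 3, against 156.9 and 330.05 CPM in givinostat replicates 1 and 2. Only givinostat replicate 1 thus lay below the CCl4 range. The Kupffer sums overlapped only through CCl4 replicate 1, at 972.5 and 723.7 CPM in CCl4 replicates 2 and 3 against 552.7 and 650.8 CPM under givinostat. Without that library all 8 Kupffer markers lay lower at an unadjusted edgeR p under 0.05, as did 8.09% of all genes (Timd4 edgeR adjusted p = 0.0315). In that fit 6 of 7 leukocyte markers lay lower. Of 7 hepatocyte markers 5 lay higher, and without CCl4 replicate 1 this was 3. Cyp2e1, the enzyme known to activate CCl4 and named here after its values were seen, was at 859.0, 1038 and 984.0 CPM in the CCl4 livers, against 3040 and 1639 CPM under givinostat. Its log2 difference was 1.28 ± 0.25 (SE; edgeR adjusted p = 0.210, DESeq2 adjusted p = 0.00075). Their part in the Bax and Plk2 values was not tested.

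Phlda3 encodes a p53-induced inhibitor of the kinase Akt (chromosome 1, 135766119 to 135769136, plus strand). It was at 13.3, 5.97 and 11.3 CPM in the CCl4 livers, against 10.6 and 7.09 CPM under givinostat. The givinostat values lay inside the CCl4 range, which spanned a factor of 2.23. The fitted log2 fold change was -0.21 ± 0.35 (SE; edgeR adjusted p = 0.960), with signs turning to 0.03 without CCl4 replicate 1 and 0.05 without givinostat replicate 2.

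Sesn1 encodes sestrin 1, a stress protein that restrains the growth kinase complex mTORC1 (chromosome 10, 41809935 to 41908424, plus strand). It was at 9.43, 13.3 and 14.6 CPM in the CCl4 livers, against 15.6 and 11.9 CPM under givinostat. It was the one member lowest in CCl4 replicate 1, at 0.677 times the mean of CCl4 replicates 2 and 3. On the log2 scale the groups differed by 0.14 ± 0.24 (SE; edgeR adjusted p = 0.962), turning to -0.02 when CCl4 replicate 1 was left out and to -0.07 when givinostat replicate 1 was.

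Zmat3 encodes an RNA-binding zinc finger protein (chromosome 3, 32334792 to 32366014, minus strand). It was at 29.2, 11.3 and 14.9 CPM in the CCl4 livers, against 15.7 and 12.9 CPM under givinostat. CCl4 replicate 1 was 2.24 times the mean of CCl4 replicates 2 and 3, the largest such ratio among the members, and the other 4 libraries lay close together. The log2 fold change was -0.37 ± 0.37 (SE; edgeR adjusted p = 0.919), and 0.13 ± 0.20 without CCl4 replicate 1.

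**Figure D3:**
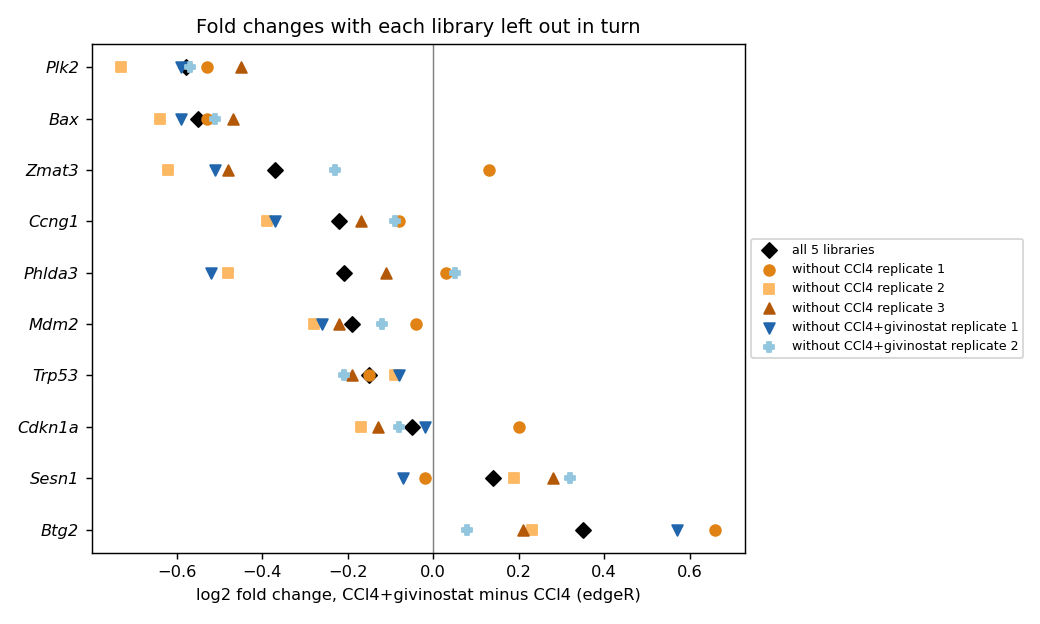
Log2 fold change of each member, CCl4+givinostat minus CCl4 (edgeR), with all 5 libraries (black diamonds) and with each library left out in turn. Points for Bax and Plk2 stay between -0.73 and -0.45, whereas those of Cdkn1a, Zmat3, Phlda3 and Sesn1 lie on both sides of 0.

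Per kilobase of exon, the members spanned a wide range of levels. Mean CPM per kilobase with CCl4 was 53.5 for Cdkn1a and 47.8 for Bax, followed by Ccng1 (14.7), Btg2 (14) and Mdm2 (13.3). Phlda3 (6.54), Trp53 (5.87) and Plk2 (5.82) came next, then Sesn1 (3.12) and Zmat3 (1.61). With givinostat the means were 51.7 for Cdkn1a and 32.7 for Bax. Cdkn1a and Bax overlapped over single libraries, at 44.1 to 70.3 and 31.8 to 52.4. Ccng1, Btg2 and Mdm2 could not be ordered beyond their spread, with ranges of 11.1 to 17.4, 10.9 to 20.8 and 11.1 to 15.9. The ranges of Phlda3, Trp53 and Plk2 overlapped as well. The level of Sesn1, at 2.37 to 3.91, reached just past the lowest Phlda3 and Plk2 values of 3.83 and 3.87. It also overlapped that of Zmat3, at 0.985 to 2.55.

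Beyond the members, 35 further p53 targets were measured, and none passed edgeR's test over all genes. Of these, 13 had a higher and 22 a lower fitted value, with a median log2 fold change of -0.14. Ddit4, an mTORC1 inhibitor also induced by hypoxia and glucocorticoids, was lowest by p. It was at 24.8, 26.5 and 23.0 CPM in the CCl4 livers, against 14.9 and 12.1 CPM under givinostat. Its log2 fold change was -0.87 ± 0.18 (SE; edgeR adjusted p = 0.225), it passed DESeq2 over all genes (adjusted p = 0.00793), and it passed edgeR without CCl4 replicate 1 (adjusted p = 0.0366). Ei24, Sulf2 and Bbc3 lay higher without overlap, with log2 fold changes of 0.51 ± 0.15, 0.58 ± 0.18 and 0.58 ± 0.18 (SE) and edgeR adjusted p-values of 0.450 to 0.493. In all, 7 of the 35 were higher and 6 lower without overlap, where 11.7% of all tested genes were so in each direction. Bbc3 encodes PUMA, which triggers Bax, and it was at 7.91, 7.79 and 8.83 CPM in the CCl4 livers, against 12.7 and 11.8 CPM under givinostat. At an unadjusted edgeR p under 0.05, 4 of the 35 were higher and 2 lower, against 3.52% and 3.93% of all genes. With all libraries, the targets of smallest p thus lay on both sides. Without CCl4 replicate 1, 15 of the 35 had a higher and 20 a lower fitted value. In that fit 7 were higher and 1 lower at an unadjusted edgeR p under 0.05, against 7.8% and 8.09% of all genes.

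**Figure D4:**
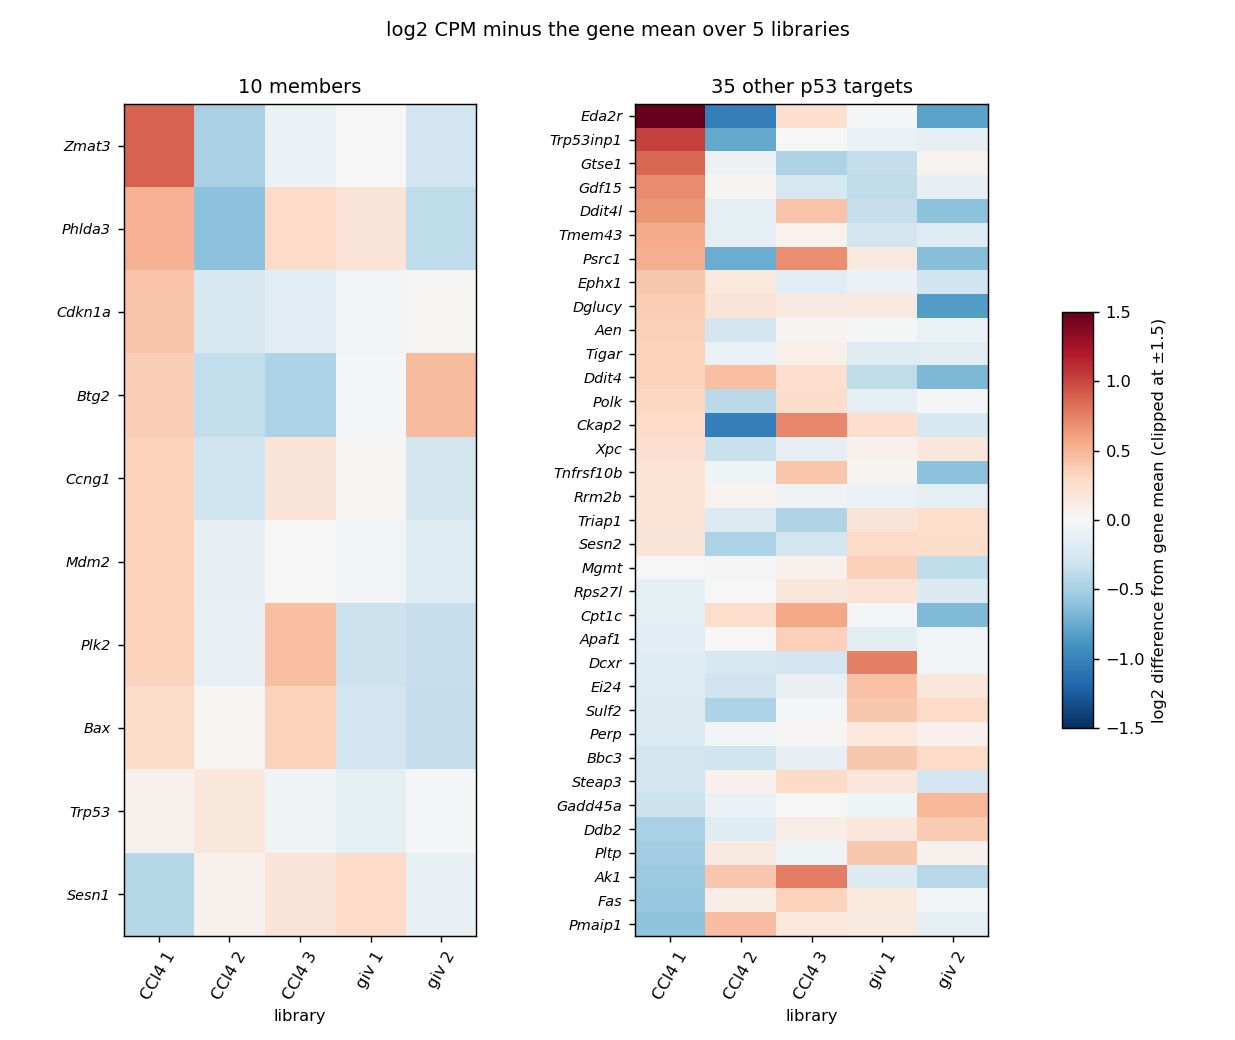
Log2 CPM of each gene minus its mean over the 5 libraries, for the 10 members (left) and 35 other p53 targets (right), ordered by the value in CCl4 replicate 1. The first column is red from Zmat3 (0.88) to Bax (0.27) at left and in the upper rows at right, while the givinostat columns hold both colours.

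For some targets the CCl4 livers differed widely among themselves. Eda2r, a death receptor of the tumour necrosis factor family, and Trp53inp1, a p53 cofactor of cell death and autophagy, are given here after their values were seen. Eda2r was at 14.8, 2.31 and 5.77 CPM in the CCl4 livers, against 4.77 and 2.74 CPM under givinostat. Trp53inp1 was at 307.9, 88.4 and 150.00 CPM in the CCl4 livers, against 141.2 and 137.6 CPM under givinostat. CCl4 replicate 1 was the highest library for both, and for 13 of the 35 targets. Centred log2 CPM of the members had medians of 0.35, -0.18 and 0.09 in CCl4 replicates 1 to 3 and of -0.03 and -0.22 with givinostat. For the 35 targets the medians were 0.20, -0.10, 0.06, 0.06 and -0.13 in the same order.

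Genes that regulate p53 were split between higher and lower fitted values. Of 22, 20 were tested, as Trp63 and Trp73, the genes of its relatives, had too few counts. There were 11 higher and 9 lower, with a median log2 fold change of 0.01. Groups did not overlap for 0 of 20, against 23.4% of all tested genes. Cop1, a ubiquitin ligase of p53, had the smallest p and a log2 difference of 0.22 ± 0.16 (SE; edgeR adjusted p = 0.862). Chek2, Atm and Chek1, the damage-signalling kinases, were at 0.47 ± 0.51, -0.18 ± 0.21 and -0.44 ± 0.53 (SE), all with edgeR adjusted p-values above that. At an unadjusted edgeR p under 0.05 there were 0 of 20, against 7.45% of all genes. Without CCl4 replicate 1 the median was 0.04. In that fit 2 were higher and 0 lower at an unadjusted edgeR p under 0.05, against 7.8% and 8.09% of all genes.

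The other inhibitors of cyclin-dependent kinases lay on both sides of the CCl4 level. Of 6, 2 lay higher and 4 lower, with a median of -0.06. EdgeR called 0, against 0.00736% of all genes, and 0 were at an unadjusted edgeR p under 0.05, against 7.45%. Without CCl4 replicate 1, 5 were tested, with 1 higher and 4 lower and a median of -0.03. Cdkn1b, encoding p27, had a log2 fold change of -0.10 ± 0.18, and Cdkn2d, encoding p19, one of 0.40 ± 0.36 (SE). Cdkn2a and Cdkn2b were near the detection limit, at 0.0948 to 1.15 CPM and 0.192 to 0.675 CPM, where 3 counts correspond to 0.138 to 0.161 CPM. Of 15 proliferation genes that p21 is known to hold down through the DREAM repressor complex, 13 were tested and 10 lay lower, with a median of -0.26. Without overlap, 3 were lower and 1 higher, where 11.7% of all tested genes were so in each direction. Mcm5, E2f1 and Top2a were the lower ones, at -1.15 ± 0.38, -0.80 ± 0.33 and -0.41 ± 0.29 (log2, SE). Ccnb1 was the higher one, at 1.04 ± 0.39 (edgeR adjusted p = 0.505 to 0.856 for the 4 genes). Without CCl4 replicate 1, 11 of 13 lay lower with a median of -0.44. These transcripts were scarce, from 23.4 to 38.0 CPM summed over the list.

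Genes known to be induced by histone deacetylase inhibitors in cultured cells numbered 6, of which 5 lay higher with a median of 0.12. EdgeR called 0 of them, against 0.00736% of all genes. Of the 5, Alpl and Cdkn1c stood at only 0.01 and 0.04 (log2), and without CCl4 replicate 1 there were 3 higher and 3 lower with a median of 0.06. Txnip alone, 1 of 6, had an unadjusted edgeR p under 0.05, against 7.45% of all genes. Of the list, Txnip, which encodes a thioredoxin-binding protein, stood out, at 77.1, 80.7 and 142.8 CPM in the CCl4 livers, against 196.7 and 193.4 CPM under givinostat. Its log2 fold change was 0.96 ± 0.26 (SE; edgeR adjusted p = 0.387, DESeq2 adjusted p = 0.0620). H1f0, the gene of linker histone H1.0, was at 0.20 ± 0.15, and Gsn, encoding gelsolin, at -0.11 ± 0.22 (SE), both with overlapping groups. Models on the opposite strand cover 19.4% of the exonic bases of Txnip and 7.93% of those of H1f0.

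The relatives of Bax lay on both sides of the CCl4 level, more of them higher. Of 14 BCL2 family genes, 13 were tested, 10 lay higher and 3 lower, with a median of 0.15. EdgeR called 0 of them, against 0.00736% of all genes. Without CCl4 replicate 1, 9 lay higher and 4 lower, with a median of 0.25, and 0 were called (1.75% of all genes). In that fit 3 were higher and 0 lower at an unadjusted edgeR p under 0.05, against 7.8% and 8.09% of all genes. Bak1, which acts in parallel with Bax, was at 14.7, 17.9 and 15.9 CPM in the CCl4 livers, against 19.9 and 20.6 CPM under givinostat. The log2 difference was 0.33 ± 0.17 (SE; edgeR adjusted p = 0.767). Bcl2, the founding survival gene, was at -0.63 ± 0.32 and Bmf, a pro-death member, at 0.41 ± 0.26 (SE). Ggnbp1, on the opposite strand, covers 25.5% of the exonic bases of Bak1.

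Paralogs of the members also lay on both sides of the CCl4 level. Of 19, which include Bak1 and Bok from the BCL2 family, 16 were tested and 0 were called, against 0.00736% of all genes. At an unadjusted edgeR p under 0.05, 2 were higher and 2 lower, against 3.52% and 3.93% of all genes. In the BTG/TOB family to which Btg2 belongs, Btg1 lay higher at 0.51 ± 0.15, and Tob1 and Tob2 lower at -0.44 ± 0.16 and -0.59 ± 0.22 (log2, SE; edgeR adjusted p = 0.458 to 0.571). All 3 had groups that did not overlap, as had 23.4% of all tested genes. Ccng2, the relative of Ccng1 that is known as a FOXO target, was at 22.7, 13.2 and 15.2 CPM in the CCl4 livers, against 25.5 and 25.01 CPM under givinostat, 0.57 ± 0.24 (log2, SE; edgeR adjusted p = 0.645). Without CCl4 replicate 1, Ccng2 passed edgeR over all genes, with a log2 fold change of 0.83 and an adjusted p of 0.0315.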

How the data were processed

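Per the labels' protocols, liver RNA was extracted with Trizol and libraries were built with a TruSeq kit. The deposited values are raw read counts per gene symbol, 1 table per library. Bowtie 0.12.2 is named in the submitters' processing notes, with builds mm8 and mm10 and no roles. The sources used here name no counting program, annotation or strand setting. Rows with a calendar date in place of a symbol (26, with 0.144 to 0.169% of counts) were left out.

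Libraries were grouped by treatment label (3 CCl4, 2 CCl4+givinostat), and replicate numbers come from the sample titles. The series design describes mice. If libraries are not separate mice, p-values measure only the spread between them. Every pair of libraries differed by more than sampling noise. The labels give no batch. Counts were fitted with edgeR 4.0.16 in R 4.3.3 (filterByExpr, TMM scaling, quasi-likelihood test with treatment as the only term, 3 residual degrees of freedom). A call is an adjusted p under 0.05 (Benjamini-Hochberg, over 13590 genes). The biological coefficient of variation was 20.0%. CPM use TMM-scaled library sizes, and centred log2 CPM a prior count of 2. The SE is the size of the log2 fold change over root F. Intervals use 7.16 to 8.16 degrees of freedom and are not adjusted. DESeq2 1.42.0, replicate block, RLE scaling, 2 other filters, an adjusted p of 0.1 and leaving out each library were alternatives.

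Members and lists were chosen with earlier results of these data known. All members are named, and in each list up to 4 genes of smallest p, unless stated. The hepatocyte marker Tf matched no row by that symbol. Positions and exon lengths come from GENCODE M21 (GRCm38).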

Additional observations from a re-analysis of the deposited data

How the results depend on the processing

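In every alternative run, 0 members were called, and their median log2 fold change stayed negative, from -0.34 (without CCl4 replicate 2) to -0.03 (without CCl4 replicate 1). Over all genes the count of calls was 1 as fitted, 145 with the replicate block, 38 with no low-count filter, 0 with the stricter filter (10 or more counts throughout at least 1 group), 148 with DESeq2, 3 at an adjusted p of 0.1, and 0 to 235 with a library left out (235 without CCl4 replicate 1, 0 without each of the others). Members at an unadjusted p under 0.05, a count added after seeing the data, numbered 0 with the replicate block and 0 to 3 with a library left out. At an adjusted p of 0.1 the fold changes are those of the main fit and could not turn. RLE scaling and the 2 other filters left them almost unchanged. Of 110 member fold changes under the alternatives, 104 kept direction and side of the threshold. The other 6 turned in sign, all with a library left out, where Cdkn1a ranged from -0.17 to 0.20, Phlda3 from -0.52 to 0.05, Sesn1 from -0.07 to 0.32 and Zmat3 from -0.62 to 0.13. The cause was not tested. Same-numbered libraries did not deviate together from their group means (r = -0.15 and -0.08 across genes, which are not independent replicates). The 2 givinostat libraries deviate from their mean in mirror image, so these r values cannot exclude a pairing. The block leaves 1 residual degree of freedom. Leaving out a givinostat library assumes that the lone one varies like the CCl4 libraries.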

Other observations

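Immediate early genes, among which Btg2 and Plk2 are often counted, lay on both sides of the CCl4 level. Of 13, 8 were higher and 5 lower, with a median log2 fold change of 0.00 and 0 called by edgeR. However, 5 had an unadjusted edgeR p under 0.05, against 7.45% of all genes. DESeq2 called Fos, and 1.09% of all genes. Fos was at 9.15, 8.85 and 10.4 CPM in the CCl4 livers, against 5.26 and 5.07 CPM under givinostat, -0.88 ± 0.21 (log2, SE; edgeR adjusted p = 0.330, DESeq2 adjusted p = 0.0473). Myc, a repressor of Cdkn1a in cultured cells, was at 28.6, 20.6 and 20.1 CPM in the CCl4 livers, against 36.7 and 44.4 CPM under givinostat. Its log2 fold change was 0.81 ± 0.20 (SE; edgeR adjusted p = 0.338), and without CCl4 replicate 1 it was 0.99 (edgeR adjusted p = 0.0139). Jun and Dusp1 lay lower without overlap, at -0.70 ± 0.23 and -0.98 ± 0.36 (log2, SE; edgeR adjusted p = 0.501 and 0.556). Among the 13, 3 were lower and 2 higher without overlap, where 11.7% of all tested genes were so in each direction.

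Clock genes matter for Cdkn1a because its liver transcript is known to follow the circadian clock through Nr1d1 and its relatives. Of 13, 8 were higher and 5 lower, with a median of 0.12 and 0 called by edgeR. However, 5 had an unadjusted edgeR p under 0.05, against 7.45% of all genes. DESeq2, which called 1.09% of all genes, called Tef (adjusted p = 0.00352) and Noct (adjusted p = 3.49e-06). Noct was at 52.5, 47.9 and 34.2 CPM in the CCl4 livers, against 17.4 and 12.7 CPM under givinostat. Tef was at 30.9, 28.5 and 31.1 CPM in the CCl4 livers, against 61.5 and 48.2 CPM under givinostat. Without CCl4 replicate 1 the median was 0.31 and edgeR called 3 of 13, against 1.75% of all genes. These were Noct (edgeR adjusted p = 0.0111), Tef (edgeR adjusted p = 0.0254) and Nr1d2 (edgeR adjusted p = 0.0463). Nr1d2, a close relative of Nr1d1, was at 62.0, 27.0 and 27.5 CPM in the CCl4 livers, against 41.9 and 42.4 CPM under givinostat. Its log2 fold change was 0.12 ± 0.35 (SE; edgeR adjusted p = 0.984) with all libraries and 0.63 without that one. Per3 and Nr1d1 lay higher without overlap, at 0.91 ± 0.32 and 0.52 ± 0.21 (log2, SE). Among the 13, 5 were higher and 2 lower without overlap, where 11.7% of all tested genes were so in each direction. The sources used here give no time of sampling, and its part in these values was not tested.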
